A study of Mus musculus with 8 samples.

Results

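The 10 antiviral effector genes Rsad2 (viperin), its neighbour Cmpk2, Mx1, Mx2, Bst2 (tetherin), Ifitm1, Ifitm2, Ifitm3, Xaf1 and Rtp4 were followed in mouse ear epidermis. They were chosen by name for their antiviral roles, with earlier results of these data known. All 10 were found among the 51912 gene identifiers counted. Each of the 8 libraries came from a different mouse. The libraries labelled A20KIKO (4 mice) came from A20F/F Krt5-CreERT2+ animals and those labelled A20WT (4 mice) from A20F/F Krt5-CreERT2- animals. Both groups thus carried the floxed A20 (Tnfaip3) alleles. All mice were 8 weeks old, received 1 mg of tamoxifen into the peritoneum on each of 2 consecutive days, and were killed 7 days after the first dose. Krt5 is a keratin gene of basal keratinocytes, so its promoter directs the inducible Cre to these cells, while the libraries hold RNA of every cell type in the sheet. The A20WT mice had no Cre, so the presence of the Cre cannot be told apart from the deletion.

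The genes belong to the interferon-stimulated set. Type I and type III interferons bind receptors that activate transcription factors, which bind interferon-stimulated response elements (ISRE) in the promoters of such genes. Their products block steps of viral entry, replication or release, and keratinocytes can make them at the skin surface. A20 restrains NF-kB signalling and inflammatory cell death.

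Total counts ran between 40451075 and 89106039 in the A20KIKO libraries and between 52972464 and 89624373 in the A20WT libraries. Levels are CPM, counts scaled to the library total and its composition. Tnfaip3, the targeted gene, was higher in libraries labelled A20KIKO, at 74.0 ± 17.3 CPM, than in libraries labelled A20WT, at 16.5 ± 2.65 CPM (SD, n = 4 each; log2 change 2.16). The labels do not say which exons were deleted, and a gene-wide count also holds the exons that remain, so it checks nothing about the labels. Keratinocyte markers summed to 48654 to 62853 CPM in A20KIKO and 53576 to 73047 CPM in A20WT libraries, and 1 of the 11 tested was lower, Krt5 itself, at 3512 ± 133 CPM in A20KIKO and 6227 ± 575 CPM in A20WT libraries (SD, n = 4 each). DESeq2 called 2 keratinocyte markers, Krt5 and Krt15, and 2 passed an unadjusted edgeR p under 0.05. For this and the lists below, edgeR called 576 of all 16512 genes at an adjusted p under 0.05, 401 higher and 175 lower. The unadjusted threshold was passed by 2543 of the 16512, and DESeq2 called 1170 of 18851. Of the Langerhans cell markers edgeR called 0 of 8 (0 at an unadjusted p under 0.05, 0 by DESeq2), and of the epidermal T cell markers 0 of 10 (1 unadjusted, 0 by DESeq2). Of 7 fibroblast markers edgeR called 0 (5 unadjusted, 3 by DESeq2), with sums of 15.5 to 37.4 CPM in A20KIKO and 39.95 to 55.6 CPM in A20WT libraries. Of 6 melanocyte markers it called 0 (4 unadjusted, 2 by DESeq2), with sums of 47.2 to 224 CPM in A20KIKO and 42.6 to 58.6 CPM in A20WT libraries. The B cell, natural killer, endothelial and mast cell lists had 2 or 3 tested members each, with 0 called by edgeR or DESeq2 and, at an unadjusted p under 0.05, 1 mast cell marker. Monocyte and macrophage markers summed to 110 to 194 CPM in A20KIKO and 66.4 to 109 CPM in A20WT libraries, with C1qa, C1qb, C1qc and Ly6c2 higher out of 11 tested (7 of the 11 at an unadjusted p under 0.05, and 6 called by DESeq2, which added Lyz2 and Ccr2). In bulk RNA, fewer cells of a type and less RNA per cell cannot be told apart. A20KIKO mouse 4 stood apart in neutrophil genes, with 141 counts of Ly6g, which had 0 in the other 7 libraries. Its neutrophil list summed to 2945 CPM, against 23.3 to 61.1 CPM in the other A20KIKO libraries and 5.82 to 38.5 CPM in the A20WT libraries. S100a9 at 1899 CPM and S100a8 at 947 CPM held most of that sum. Elane was at 0 in all 8, Camp had 3 counts in mouse 4 and 7 in A20KIKO mouse 3, and Mpo had 11 and 6 there. Of 3 neutrophil markers tested, edgeR called 0 (1 unadjusted, 0 by DESeq2).

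Of the 10 antiviral effectors, 8 were higher in A20KIKO, 0 were lower, Ifitm2 did not pass the test and Ifitm1 was not tested because too few libraries reached the minimum count. Over all 16512 genes tested, 2.43% were called higher, 1.06% lower and 3.49% in either direction (edgeR quasi-likelihood test, Benjamini-Hochberg adjusted p under 0.05). The same 8 genes did not overlap between the groups, the lowest A20KIKO library lying above the highest A20WT library, which held for 5.78% of all genes tested. The genes were chosen with earlier results known, so these shares are set beside them as a description. Rsad2, Mx1 and Mx2 passed the filter on low counts only through their A20KIKO libraries, so a tested gene of that kind had to differ. Their calls are given as a description. Leaving out A20KIKO mouse 4, the library with the neutrophil genes, also gave 8 called genes of 9 tested.

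**Figure D1:**
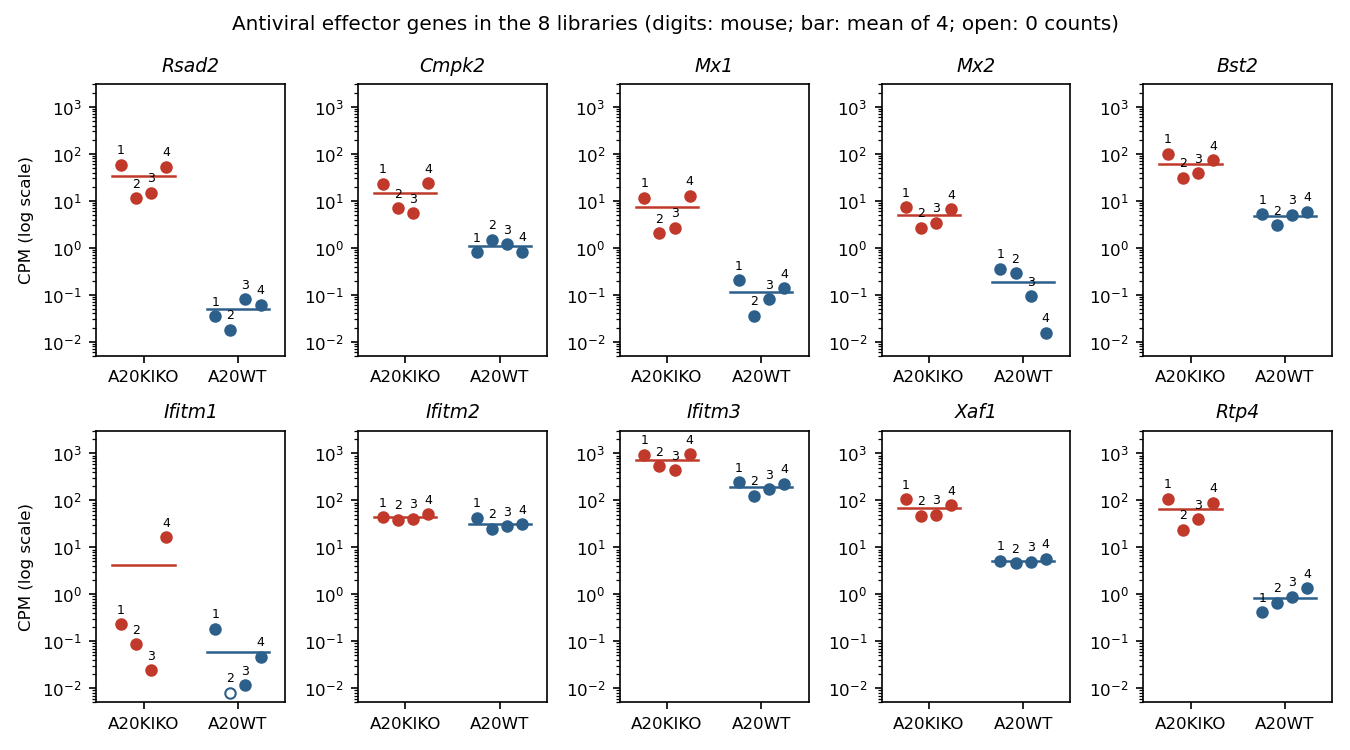
CPM of each antiviral effector gene on a log axis, with A20KIKO libraries left and A20WT libraries right in every panel, mouse numbers as digits, a bar at the mean of 4 and an open point for 0 counts. In the A20KIKO group mice 1 and 4 sit above mice 2 and 3, and only the Ifitm1 and Ifitm2 panels have overlapping groups.

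Rsad2 encodes viperin, a radical SAM enzyme that makes a chain-terminating analogue of CTP and so stops some viral RNA polymerases. Rsad2 (ENSMUSG00000020641, chr12:26442746-26456452, minus strand, GRCm38) had 59.3, 11.4, 15.05 and 52.9 CPM in A20KIKO mice 1 to 4, against 0.0346, 0.0180, 0.0812 and 0.0621 CPM in A20WT mice 1 to 4. The A20WT libraries held 15 counts of it in all, while the A20KIKO libraries held 10989. Rsad2 was 659-fold higher (log2 change 9.36, SE 0.91, adjusted p = 0.00227), the second highest log2 change of all genes tested. As Rsad2 passed the filter only through its A20KIKO libraries, that adjusted p and rank are a description. The log2 change was 10.11 with the first sequencing lane alone and 8.81 with the second alone. With limma-voom in place of edgeR it was 9.14 with an adjusted p of 0.0939, so the call was lost there.

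Cmpk2, a mitochondrial nucleoside monophosphate kinase, lies next to Rsad2 in divergent orientation, with 12751 bases and 0 protein-coding genes between them. Cmpk2 (ENSMUSG00000020638, chr12:26469204-26479837, plus strand) had 23.3, 6.97, 5.44 and 23.7 CPM in A20KIKO mice 1 to 4, against 0.807, 1.496, 1.195 and 0.823 CPM in A20WT mice 1 to 4. Mice 1 and 4 were again the high pair. Cmpk2 was 13.8-fold higher (log2 change 3.79, SE 0.56, adjusted p = 0.00774). Without A20WT mouse 1 the log2 change was 3.67 with an adjusted p of 0.0622.

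The sizes of these changes were compared within each library. The log2 ratio of Rsad2 to Cmpk2 CPM averaged 1.17 ± 0.33 in A20KIKO and -3.87 ± 0.80 in A20WT libraries (SD, n = 4 each), a difference of 5.04. All 4 A20KIKO ratios exceeded all 4 A20WT ratios. The exact two-sided permutation p was 0.0286, the smallest that 4 against 4 libraries can give, and 0.0714 after adjustment over the 5 ratios compared. With 1 to 7 counts of Rsad2 per A20WT library, the A20WT ratio depends on the prior count added, and the difference was 5.56 at a prior count of 0.5 and 4.42 at 5. The promoter windows of both genes are shown because they are neighbours with fitted changes of such different size. Each is the 300 bases in the RefSeq promoter table for GRCm38.p6, of which 250 lie before the annotated start. Rsad2 is at chr12:26456403-26456702, minus strand, and Cmpk2 at chr12:26468965-26469264, plus strand. Capitals mark matches, on either strand, to the ISRE core searched: GAAA, any 2 bases and GAAA again.
Rsad2: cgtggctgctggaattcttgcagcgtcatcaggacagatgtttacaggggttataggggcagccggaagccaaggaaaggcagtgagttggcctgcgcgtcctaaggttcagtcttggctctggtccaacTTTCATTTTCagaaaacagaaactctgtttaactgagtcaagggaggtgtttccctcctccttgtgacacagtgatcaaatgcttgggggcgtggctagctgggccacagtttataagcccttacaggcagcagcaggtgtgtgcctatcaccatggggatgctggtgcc
Cmpk2: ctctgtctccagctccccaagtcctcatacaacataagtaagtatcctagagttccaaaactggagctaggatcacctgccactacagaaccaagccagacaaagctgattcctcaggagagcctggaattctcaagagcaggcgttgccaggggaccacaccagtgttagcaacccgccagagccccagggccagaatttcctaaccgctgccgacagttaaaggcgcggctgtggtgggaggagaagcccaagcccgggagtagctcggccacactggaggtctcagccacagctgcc
The Rsad2 window had 1 match, with the core on the strand opposite to the one printed, at positions -120 to -111 counted from the annotated first base as 0. The Cmpk2 window had 0, which says only that these letters are not in this window.

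Mx proteins are dynamin-like GTPases that form rings around viral nucleoproteins. In mice, Mx1 acts in the nucleus on influenza viruses and Mx2 in the cytoplasm, and both are defective in many inbred strains. The RefSeq annotation of the C57BL/6J reference lists both as transcribed pseudogenes, and the mouse strain is not given in the sources used here. Mx1 (ENSMUSG00000000386, chr16:97447035-97462907, minus strand) had 11.6, 2.04, 2.67 and 12.7 CPM in A20KIKO mice 1 to 4, against 0.207, 0.0360, 0.0812 and 0.140 CPM in A20WT mice 1 to 4. The lowest A20KIKO library was 9.85-fold above the highest A20WT library. Mx1 was 59.95-fold higher (log2 change 5.91, SE 0.81, adjusted p = 0.00515), although with limma-voom the log2 change of 5.80 had an adjusted p of 0.0824. Mx2 (ENSMUSG00000023341, chr16:97535308-97560900, plus strand) had 7.23, 2.68, 3.43 and 6.58 CPM in A20KIKO mice 1 to 4, against 0.357, 0.288, 0.0928 and 0.0155 CPM in A20WT mice 1 to 4. It was 26.2-fold higher (log2 change 4.71, SE 0.65, adjusted p = 0.00306). Both genes had few counts in the A20WT libraries, 36 in all for Mx1, and passed the filter only through their A20KIKO libraries. Their adjusted p-values are thus a description. The log2 ratio of Mx1 to Mx2 was 0.22 ± 0.70 in A20KIKO and -0.30 ± 1.75 in A20WT libraries (SD, n = 4 each), a difference of 0.53 (exact permutation test, two-sided p = 0.6, adjusted p = 0.75). Without A20WT mouse 2 that difference was -0.14, so its direction rests on that library. Of the 50-base stretches of Mx1 exons 4.37% also occur in other genes, Mx2 among them, and of Mx2 exons 4.38%.

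Bst2 encodes tetherin, a membrane protein that holds budding enveloped viruses at the cell surface. Bst2 (ENSMUSG00000046718, chr8:71534255-71537456, minus strand) had 102, 31.0, 38.9 and 74.1 CPM in A20KIKO mice 1 to 4, against 5.21, 3.03, 5.08 and 5.84 CPM in A20WT mice 1 to 4. The lowest A20KIKO library stood well above the highest A20WT library. Bst2 was 12.8-fold higher (log2 change 3.68, SE 0.42, adjusted p = 0.00221). In mice the protein also marks plasmacytoid dendritic cells, and it appears on other cells after interferon. Siglech, a defining marker of those cells, had 74, 2, 12 and 116 counts in A20KIKO mice 1 to 4, against 2, 6, 4 and 4 counts in A20WT mice 1 to 4. It was too low for the edgeR filter, and without that filter it was called higher by edgeR (adjusted p = 0.0399) and by DESeq2 (adjusted p = 0.00172). Of the 7 markers on that list that edgeR tested, Spib was called higher and 5 had log2 changes below 0, with a median of -0.20 over the 7. The summed list ran between 4259 and 5363 CPM in A20KIKO and between 4263 and 7506 CPM in A20WT libraries. Ly6d has most of these counts, so the sum says little about Siglech, Spib and the other markers. The part of plasmacytoid dendritic cells in the Bst2 result was not tested. The Bst2 window (chr8:71537423-71537722, minus strand) is shown because it holds overlapping matches to the ISRE core, in capitals.
Bst2: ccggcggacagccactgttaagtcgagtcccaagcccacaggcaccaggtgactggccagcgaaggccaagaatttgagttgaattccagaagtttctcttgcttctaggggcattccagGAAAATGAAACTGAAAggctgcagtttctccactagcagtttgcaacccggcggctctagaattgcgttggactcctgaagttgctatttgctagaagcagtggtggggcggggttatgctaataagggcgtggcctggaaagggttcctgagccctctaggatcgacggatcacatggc
The 2 matches lie at positions -130 to -121 and -124 to -115 and share 4 bases. A palindromic GAS (gamma-activated sequence) pattern, TTCNNNGAA, matched at -136 to -128 and overlaps the first of them.

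The IFITM proteins sit in the plasma and endosomal membranes and hinder the fusion of enveloped viruses with the cell. Ifitm1, Ifitm2 and Ifitm3 lie in a cluster on chromosome 7. Ifitm3 (ENSMUSG00000025492, chr7:141009586-141010770, minus strand) had 932, 542, 437 and 951 CPM in A20KIKO mice 1 to 4, against 245, 126, 175 and 224 CPM in A20WT mice 1 to 4. It was high in every library and its groups did not overlap. Ifitm3 was 3.71-fold higher (log2 change 1.89, SE 0.29, adjusted p = 0.00502), the smallest fold among the 8 called genes.

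Ifitm2 (ENSMUSG00000060591, chr7:140954837-140955987, minus strand) had 43.4, 38.5, 41.0 and 51.2 CPM in A20KIKO mice 1 to 4, against 42.7, 24.9, 27.9 and 31.0 CPM in A20WT mice 1 to 4. The groups overlapped through A20WT mouse 1. Its fold was 1.38 (log2 change 0.46, SE 0.17, adjusted p = 0.190), which did not pass the test. Without A20WT mouse 1 the log2 change was 0.64 and passed, with an adjusted p of 0.0207. Of its 50-base exon stretches 48.5% also occur in other genes, the largest share among the 10, so its reads could be split between copies. The annotated gene Gm45717 shares 268 of its 655 exon bases on the same strand, and Gm45717 had 0 counts in all 8 libraries.

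The 2 changes were compared within each library. The log2 ratio of Ifitm3 to Ifitm2 averaged 3.97 ± 0.45 in A20KIKO and 2.59 ± 0.22 in A20WT libraries (SD, n = 4 each), a difference of 1.38 with all 4 A20KIKO ratios above the A20WT ratios (exact permutation test, two-sided p = 0.0286, the smallest possible, adjusted p = 0.0714). The windows of the pair are shown for this contrast, with ISRE core matches in capitals: Ifitm2 at chr7:140955912-140956211, minus strand, and Ifitm3 at chr7:141010695-141010994, minus strand.
Ifitm2: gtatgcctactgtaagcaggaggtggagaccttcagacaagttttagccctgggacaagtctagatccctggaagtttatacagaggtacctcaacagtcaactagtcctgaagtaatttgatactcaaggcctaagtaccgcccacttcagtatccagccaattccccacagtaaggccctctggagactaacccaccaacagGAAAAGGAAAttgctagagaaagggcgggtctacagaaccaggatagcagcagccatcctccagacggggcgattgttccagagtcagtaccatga
Ifitm3: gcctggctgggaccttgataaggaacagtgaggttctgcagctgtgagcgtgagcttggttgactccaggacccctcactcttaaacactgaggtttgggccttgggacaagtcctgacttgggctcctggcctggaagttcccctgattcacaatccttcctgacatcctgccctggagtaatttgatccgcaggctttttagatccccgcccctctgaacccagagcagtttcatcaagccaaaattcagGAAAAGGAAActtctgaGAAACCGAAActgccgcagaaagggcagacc
Both windows hold the core. Ifitm2 had 1 match at positions -46 to -37, and Ifitm3 had 2, at 2 to 11 and 19 to 28, just after its first base in the RefSeq table. The windows thus differ in the number and place of the matches, and their part in the 2 changes was not tested.

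Ifitm1 (ENSMUSG00000025491, chr7:140967221-140969825, plus strand) had 20, 5, 1 and 1462 counts in A20KIKO mice 1 to 4, against 16, 0, 1 and 3 counts in A20WT mice 1 to 4. These are 0.234, 0.0865, 0.0245 and 16.6 CPM in A20KIKO libraries, against 0.184, 0, 0.0116 and 0.0466 CPM in A20WT libraries, where the 0 allows up to 3 counts or 0.0541 CPM. A single library, A20KIKO mouse 4, held nearly all the signal, and the remaining A20KIKO libraries overlapped the A20WT range. Without the filter the log2 change was 5.98 with an adjusted p of 0.418. A20KIKO mouse 4 is also the library with the neutrophil genes, including 1948 counts of Retnlg and 1063 of Csf3r, which had at most 1 and 16 counts in the other libraries. Ifitm6, another gene of the family, had 250 counts there, against 21 to 60 in the other A20KIKO libraries and 16 to 47 in the A20WT libraries. The part of those cells in the Ifitm1 value was not tested. The log2 ratio of Ifitm3 to Ifitm1 differed by -0.77 between A20KIKO and A20WT (exact permutation p = 0.914, also after adjustment), and by 0.85 without A20KIKO mouse 4.

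Xaf1 encodes a protein that binds and counters the caspase inhibitor XIAP. Xaf1 (ENSMUSG00000040483, chr11:72301629-72313733, plus strand) had 107, 46.9, 49.4 and 78.1 CPM in A20KIKO mice 1 to 4, against 5.21, 4.56, 4.998 and 5.76 CPM in A20WT mice 1 to 4. The A20WT values were close together. Xaf1 was 13.7-fold higher (log2 change 3.78, SE 0.26, adjusted p = 4.12e-05). Xiap, the gene of its partner, had a log2 change of -0.24 (adjusted p = 0.652) and was not called.

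Rtp4 is a Golgi chaperone for some cell surface receptors and restrains flaviviruses. Rtp4 (ENSMUSG00000033355, chr16:23520291-23614222, plus strand) had 109, 23.97, 40.1 and 89.2 CPM in A20KIKO mice 1 to 4, against 0.415, 0.667, 0.893 and 1.33 CPM in A20WT mice 1 to 4. Every A20KIKO library was far above the A20WT range. Rtp4 was 79.8-fold higher (log2 change 6.32, SE 0.67, adjusted p = 0.00301). Gm45338 shares 296 of the 2131 Rtp4 exon bases on the same strand and held 10 counts in A20KIKO and 4 in A20WT libraries. Masp1 lies on the opposite strand with 0 shared exon bases, and was not called (adjusted p = 0.772).

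**Figure D2:**
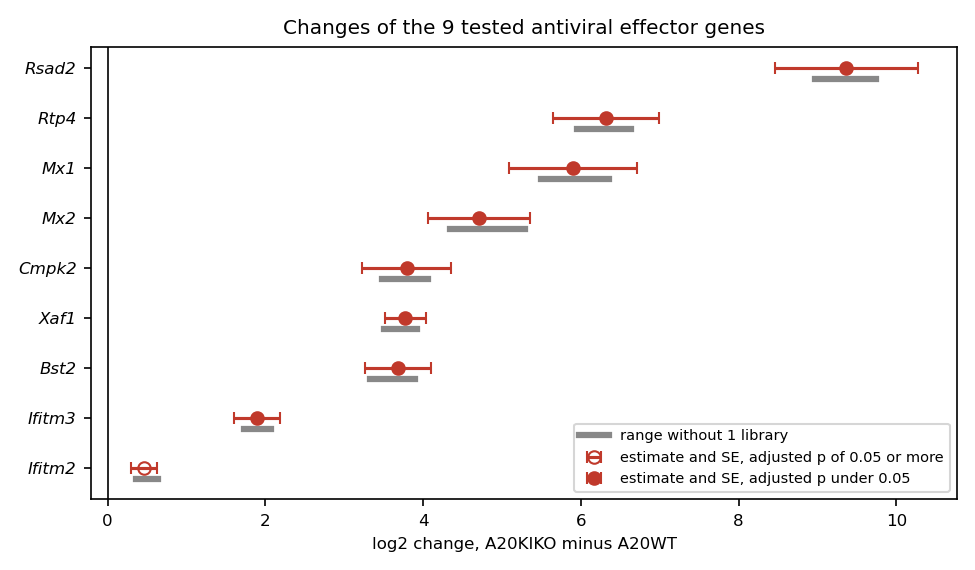
Log2 change (A20KIKO minus A20WT) of the 9 tested genes with its SE, filled where the adjusted p was under 0.05, and below each point the range when 1 library was left out. Rsad2 lies at 9.36, Rtp4 at 6.32 and Ifitm2, the open point, at 0.46.

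Within the A20KIKO group, mice 1 and 4 lay above mice 2 and 3 for each of the 10 genes. The highest A20KIKO library was mouse 1 for 5 of the 10 genes and mouse 4 for the other 5, and the lowest was mouse 2 for 7 and mouse 3 for 3. Mice 1 and 4 also had the most counts of that group, 86290868 and 89106039, against 58156350 in mouse 2 and 40451075 in mouse 3. After every library was thinned to 40451075 counts, the lower of mice 1 and 4 still exceeded the higher of mice 2 and 3 by 3.43-fold for Rsad2, 4.39-fold for Mx1, 2.15-fold for Rtp4 and 1.55-fold for Xaf1. For Ifitm2 that ratio was 1.02. No label divides the A20KIKO mice, so this order is given as a description.

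**Figure D3:**
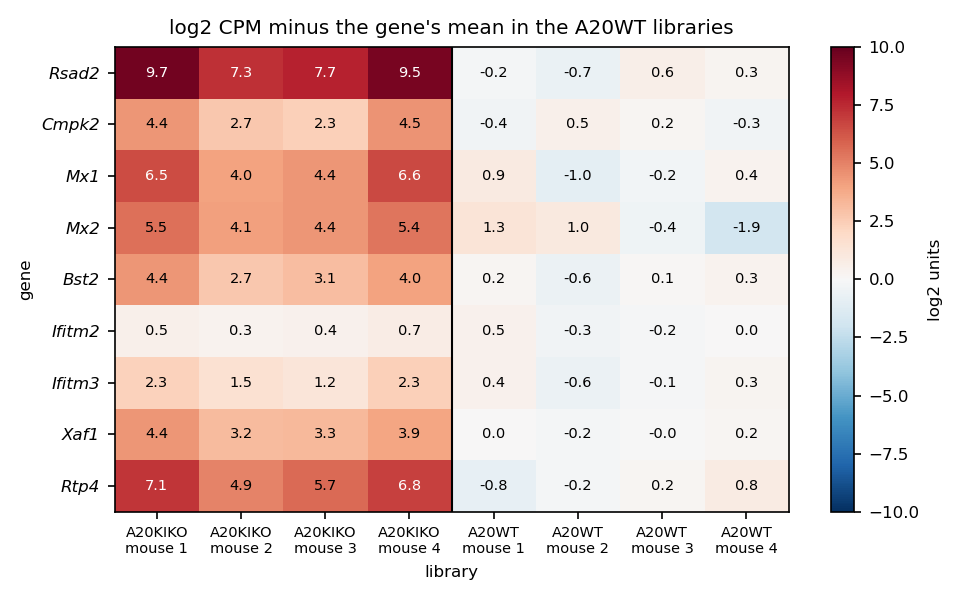
Log2 CPM of each tested gene minus its mean in the A20WT libraries, with one column per library and A20KIKO libraries left. The A20KIKO columns of mice 1 and 4 are darker than those of mice 2 and 3, and Rsad2 runs between 7.28 and 9.66 there.

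The level per length allows the genes to be set against each other. In A20KIKO libraries Ifitm3 was the most abundant at 1056 ± 391 CPM per kb of exon, followed by Bst2 at 68.1 ± 36.3, Ifitm2 at 66.5 ± 8.40, Rtp4 at 30.8 ± 18.9 and Xaf1 at 15.003 ± 6.01 (SD, n = 4). Rsad2 at 7.99 ± 5.76, Ifitm1 at 3.88 ± 7.56, Cmpk2 at 3.57 ± 2.401, Mx1 at 1.92 ± 1.51 and Mx2 at 1.38 ± 0.625 CPM per kb came after. In this order only Ifitm3 against Bst2 and Ifitm2 against Rtp4 were neighbours with separate ranges. In A20WT libraries the order was Ifitm3 at 284 ± 78.3 CPM per kb, Ifitm2 at 48.3 ± 11.9, Bst2 at 5.30 ± 1.35, Xaf1 at 1.09 ± 0.106, Rtp4 at 0.388 ± 0.183 and Cmpk2 at 0.259 ± 0.0793. Ifitm1 at 0.0554 ± 0.0775, Mx2 at 0.0521 ± 0.0445, Mx1 at 0.0307 ± 0.0196 and Rsad2 at 0.0113 ± 0.00649 CPM per kb were lowest. There the first 4 genes each had a range separate from the next, as did Cmpk2 from Ifitm1, and the remaining neighbours overlapped. Rsad2 ranked 6 of 10 in A20KIKO and 10 of 10 in A20WT libraries. Ifitm3 made up 70.7% ± 4.30 of the summed CPM of the 10 genes in A20KIKO and 81.1% ± 2.08 in A20WT libraries (SD, n = 4 each).

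**Figure D4:**
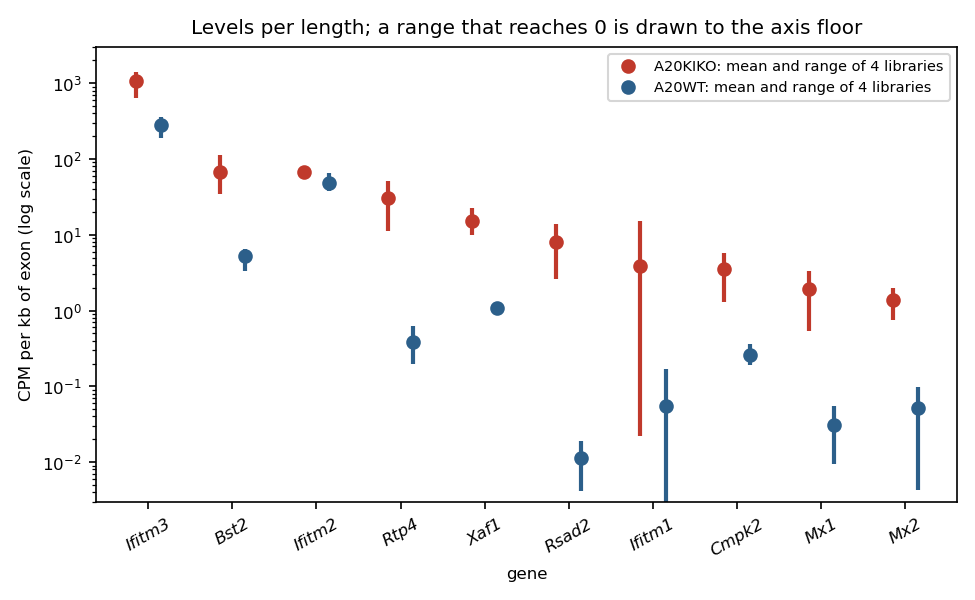
Mean level per kb of exon on a log axis with the range over 4 libraries, A20KIKO left of A20WT for each gene, in the A20KIKO order. Ifitm3 leads in both groups, and Rsad2 stands at 7.99 CPM per kb in A20KIKO and 0.0113 CPM per kb in A20WT libraries.

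A promoter window was found for 7 of the 10 genes in the RefSeq table, Mx1, Mx2 and Rtp4 having no entry. Positions are counted from the start used in that table, which need not be the end of the GENCODE span printed above. The Ifitm1 window (chr7:140967826-140968125) lies inside the Ifitm1 span printed above. The ISRE core was present in 4 of the 7, namely Rsad2, Bst2, Ifitm2 and Ifitm3, and in 3.44% of the 32851 windows of the table. An NF-kB pattern, GGGA followed by any 4 bases and CC, matched in Rsad2, Ifitm3 and Xaf1, and in 20.7% of all windows. The GAS pattern TTCNNNGAA matched in Bst2 and Ifitm3, and in 8.30% of all windows. In Ifitm3 it overlaps an ISRE core match. Both strands were searched, and a match is a description of the letters, not a site in use.

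**Figure D5:**
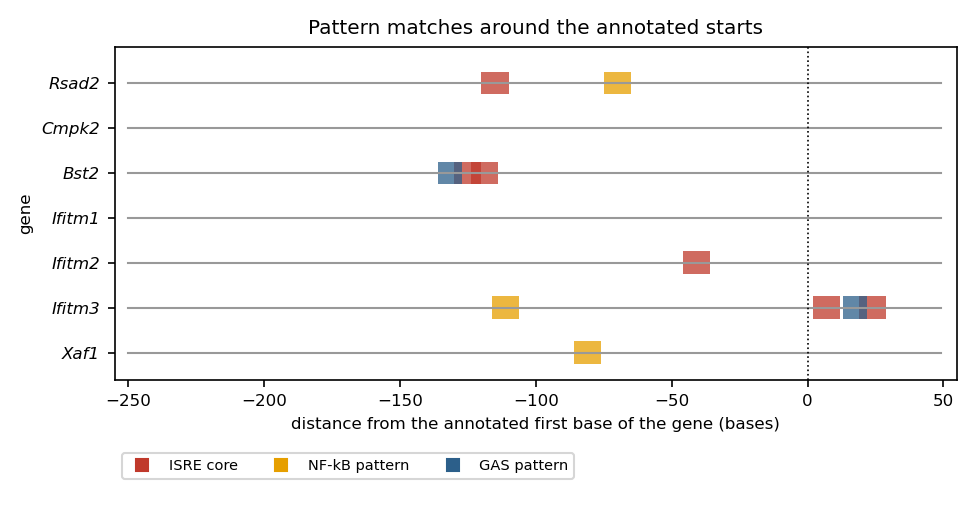
Positions of the searched patterns in the 7 promoter windows, in bases from the first base of the gene in the RefSeq table (dotted line at 0). ISRE core matches lie before that base in Rsad2, Bst2 and Ifitm2 and after it in Ifitm3, and Cmpk2 and Ifitm1 have no match to any of the patterns.

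A list of 8 relatives from the same gene families and Xiap, the partner of Xaf1, was also read. Of these 9 genes, 4 passed the filter (Xiap among them), and edgeR called 0, with a median log2 change of -0.07 beside -0.01 over all genes tested. At an unadjusted p under 0.05, which 2543 of all 16512 genes passed, 1 of the 4 passed. This was Ifitm6, with a log2 change of 1.63 and an adjusted p of 0.183. DESeq2 also called 0. Cmpk1, the cytosolic counterpart of Cmpk2, had a log2 change of 0.06 (adjusted p = 0.902), and Ifitm10 of -0.21 (adjusted p = 0.648). Ifitm7, Rtp1, Rtp2 and Rtp3 had 0 counts in all 8 libraries.

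Among 28 other antiviral effectors, all of them tested, 18 were higher in A20KIKO and 0 lower, with a median log2 change of 1.27. Over all genes tested, 2.43% were called higher. This list too was chosen with earlier results of these data known. The 5 with the smallest adjusted p were Trim21, Tdrd7, Lgals3bp, Pml and Ly6e. Trim21, a cytosolic antibody receptor and ubiquitin ligase, averaged 28.5 CPM in A20KIKO and 12.2 CPM in A20WT libraries (log2 change 1.23, SE 0.16, adjusted p = 0.00184). Lgals3bp, a secreted glycoprotein, averaged 67.8 CPM in A20KIKO and 10.6 CPM in A20WT libraries (log2 change 2.68, SE 0.32, adjusted p = 0.00191). Tdrd7, a tudor domain protein, Pml, the scaffold of PML nuclear bodies, and Ly6e, a surface protein that restrains coronavirus entry, had log2 changes of 1.21, 1.09 and 1.34. The count was 9 when tested against a 1.5-fold change, 10 without A20WT mouse 2 and 24 with DESeq2. Over all genes, these settings called 200 of 16512, 462 of 17160 and 1170 of 18851, so the count also moves with the tool.

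In the chain of interferons, receptors and transcription factors, 14 of 22 listed genes were tested. Of these, 6 were higher and 0 lower, with a median log2 change of 0.72, beside 2.43% of all genes called higher. Usp18, which dampens the type I interferon receptor, had the largest log2 change of them at 4.05 (SE 0.27, adjusted p = 4.12e-05). Among the others called, the log2 change was 3.48 for Irf7, 1.94 for Irf1, 1.68 for Stat2 and 1.43 for Irf9. The type I receptor genes did not pass the edgeR test: Ifnar1 had a log2 change of 0.25 (adjusted p = 0.449) and Ifnar2 of 0.57 (adjusted p = 0.117). DESeq2 called 9 genes of the chain, Ifnar2 among them, beside 1170 of 18851 over all genes. The interferon genes themselves had few or no counts. Ifnb1 had 1, 2, 0 and 26 counts in A20KIKO mice 1 to 4, against 0 in each A20WT library. Ifnl2, a type III interferon, had 60, 2, 6 and 99 counts in A20KIKO mice 1 to 4, against 0, 1, 0 and 0 in A20WT mice 1 to 4. Ifnl3 had 10, 1, 8 and 55 counts in A20KIKO libraries, against 0 in each A20WT library, and Ifna1, Ifna2, Ifna4 and Ifne had 0 in all 8. Ifnk had 0, 1, 0 and 2 counts in A20KIKO mice 1 to 4, against 8, 0, 0 and 4 in A20WT mice 1 to 4. None of these passed the edgeR filter. Without that filter edgeR called Ifnl2 (adjusted p = 0.00403) and Ifnl3 (adjusted p = 0.00613) higher, and so did DESeq2 (adjusted p = 2.29e-05 and 0.000461). Within the A20KIKO group Ifnl2 was highest in mice 4 and 1, at 1.13 and 0.702 CPM, while Ifnl3 was highest in mice 4 and 3, at 0.626 and 0.196 CPM.

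The 5 genes outside the list whose profiles lay nearest to the mean profile of the 9 tested effectors were Dhx58, Usp18, Ccl20, Cxcl10 and Phf11d. Likeness was the root mean square distance, over the 8 libraries, between log2 CPM profiles set to 0 at each gene's A20WT mean. Dhx58, an RNA helicase of the RIG-I family, lay at 0.216 log2 units and was at 4.92, 3.46, 3.84 and 4.75 in A20KIKO mice 1 to 4. The effector mean was at 4.98, 3.42, 3.61 and 4.86 there. Usp18 lay at a distance of 0.269, the chemokine genes Ccl20 and Cxcl10 at 0.281 and 0.370, and Phf11d at 0.388. The 9 effectors themselves lay farther from their mean, from 0.430 for Xaf1 to 2.68 for Ifitm2 and 3.07 for Rsad2. The mean is thus no profile that the effectors share. The 5 outside genes were picked for their nearness, so the distances are a description.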

How the data were processed

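RNA of ear epidermal sheets from 8 mice was made into SMART-Seq v4 and Nextera libraries, per the labels' protocols. This chemistry keeps neither strand nor molecular identifiers. An error given here holds both counting noise and the spread between mice. Raw counts per Ensembl gene were deposited in 2 lane columns per library, and the lanes were summed. Per the submitters' processing notes, HTSeq 0.6.1p1, Picard 1.139 and STAR 2.4.2a were used with the builds GRCh38 and GRCm38.p5, with no role stated. Which annotation release and counting options were used is not given in the sources used here. Positions are from GENCODE M21 on GRCm38.

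The test was edgeR 4.0.16 in R 4.3.3 (filterByExpr at a minimum count of 10 and a total of 15, TMM, robust quasi-likelihood, group as the only term), and p-values were adjusted over 16512 genes. The SE was obtained by dividing the size of the log2 change by the root of its F statistic. Ratios used log2 CPM with a prior count of 2 and exact permutation over libraries. Alternatives included DESeq2 1.42.0, limma 3.58.1 (voom), other scalings and filters, each lane, thinning, a replicate block and each library left out. Genes named outside the 10 were, per list, up to 5 called with the smallest adjusted p (with 0 called, up to 2 with the highest mean), genes overlapping a member, and the 5 nearest profiles. Xiap, Ifitm6, Krt15, Lyz2, Ccr2, Ifnar1, Ifnar2, Siglech, the interferons and genes with 0 counts were named after their values were seen, as were the neutrophil genes. The edgeR test alone was also run on simulated counts with known changes. The members and lists were chosen with earlier results of these data known. Plots were drawn with Matplotlib 3.10.9 and tables joined with pandas 2.3.3 under Python 3.11.15.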

Additional observations from a re-analysis of the deposited data

Results flagged for a closer look

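In 54 genes, 108 groups of 4 libraries were searched for a library far from the other 3, and 7 stood out, where chance gives about 1 in 20 groups. The number found is close to that share. Ifitm1 stood at 16.6 CPM in A20KIKO mouse 4, against 0.0245 to 0.234 CPM in the other A20KIKO libraries. In the same mouse S100a9 stood at 1899 CPM, against 10.4 to 29.8, and S100a8 at 947 CPM, against 2.70 to 18.6. Gm45338, which overlaps Rtp4, was lowest in A20KIKO mouse 1 at 0.0117 CPM, against 0.0455 to 0.0519 in the other A20KIKO libraries. It had only 10 counts in the whole A20KIKO group, so single counts make this gap. In A20WT mouse 1, Ifitm10 was highest at 29.8 CPM, against 17.7 to 19.8 in the other A20WT libraries, and Stat2 lowest at 13.8 CPM, against 22.2 to 23.2. C1qa was highest in A20WT mouse 4 at 2.02 CPM, against 1.12 to 1.17.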

How the results depend on the processing

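The count of called effectors ran between 6 and 8 over all alternatives and was 8 with each library left out, although without A20WT mouse 1 Ifitm2 entered and Cmpk2 left. The 6 came from limma-voom, where Rsad2 (9.14) and Mx1 (5.80) missed the threshold, and from the stricter filter of 5 CPM in at least 4 libraries, which removed Mx1 and Mx2. With each library left out, Cmpk2 ran between 3.47 and 4.06, with 3.67 without A20WT mouse 1, and Ifitm2 between 0.36 and 0.64. The difference in the Mx1 to Mx2 ratio ran between -0.14 and 1.27, and that of Ifitm3 to Ifitm1 between -1.54 and 0.85. The 576 genes called overall became 374 with the stricter filter, 1170 with DESeq2, 200 against a 1.5-fold change, and 348 to 619 with each library left out. The other antiviral effectors called became 9 against a 1.5-fold change and 10 to 21 with each library left out. Levels per kb of coding length were higher, with Rsad2 at 30.5 CPM per kb in A20KIKO libraries, and Rsad2 kept ranks 6 and 10. Which neighbours had separate ranges depended on the length used. Per coding length, Ifitm2 overlapped Rtp4 in A20KIKO and Bst2 overlapped Xaf1 in A20WT libraries. Per longest transcript, Xaf1 was separate from Rsad2 in A20KIKO libraries. Deviations of same-numbered libraries correlated at 0.0407, 0.0645, -0.0142 and 0.237, and those of differently numbered libraries between -0.241 and 0.234. With 4 libraries per group these values cannot decide whether the replicate numbers pair the mice. With the replicate number as a block, 551 genes were called, 460 of them shared, and 8 effectors, with Cmpk2 at 3.52 (adjusted p = 0.0424). A block leaves a smallest ratio p of 0.125. Counts of Rsad2 (15), Mx1 (36) and Ifitm1 in A20WT libraries limit the precision of their folds, and PCR copies cannot be told from molecules.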
